A study of Mus musculus with 20 samples.

Results

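The 9 genes described here, Rgs2, Rgs4, Rgs7, Rgs8, Rgs9, Rgs10, Rgs14, Rgs16 and Rgs20, encode regulators of G protein signalling (RGS proteins). They were taken by symbol from the deposited gene count table, using the row with the highest mean count where a symbol had several rows, and make up 9 of its 26475 loci with a gene symbol (37051 loci in all). Bulk RNA-seq had been run on whole striatum from 20 male Collaborative Cross mice aged about 6 months, 1 library per mouse. The control line and an overactive line, chosen for high activity in the cage, each gave 5 mice that received saline and 5 that received d-amphetamine (25 mg/kg), and striata were collected 2 h later. The 4 groups of 5 were therefore control saline, control amphetamine, overactive saline and overactive amphetamine. The labels name no allele that separates the lines and no litters, so the line comparison is between 2 whole lines.

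RGS proteins bind the active, GTP-loaded alpha subunit of a heterotrimeric G protein and speed its GTP hydrolysis, which ends the signal from the receptor to both the alpha and the beta gamma subunits. They fall into families by the sequences around the shared RGS domain: the small R4 members (Rgs2, Rgs4, Rgs8, Rgs16), the R7 members, which need the beta subunit encoded by Gnb5 for stability (Rgs7, Rgs9), the R12 members (Rgs10, Rgs14) and the RZ member Rgs20. In striatum they act downstream of dopamine, adenosine, opioid, muscarinic and glutamate receptors, and the long splice form of Rgs9 is best known as a striatal brake on dopamine and opioid receptor signals.

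Library totals ran from 31393788 to 53773028 counts, which put between 305 and 34946 counts on each of the 9 genes in each library, so that counting error was small beside the spread between mice. Levels are given as counts per 1000000 counts after TMM scaling (CPM). All 13 striatal projection neuron markers were found, with summed levels of 5173 to 8331 CPM over the 20 libraries. Markers of neighbouring tissue differed between libraries: the summed level of 8 thalamic neuron markers was 192 to 300.2 CPM in overactive saline libraries 1 and 4 and overactive amphetamine libraries 2 and 3 and 90.2 to 135 CPM in the other 16, and 10 cortical and hippocampal excitatory neuron markers summed to 351 to 959 CPM in control saline, 702 to 999 in control amphetamine, 166 to 379 in overactive saline and 259 to 1131 CPM in overactive amphetamine. Mbp and Slc1a2, which brain tissue uses abundantly, were listed at 0 in every library, so a 0 in this table cannot be read as absence, and none of the 9 genes was at 0 anywhere. In bulk tissue, fewer cells of a type and less RNA per cell cannot be told apart.

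Promoter sequence was on hand for 7 of the 9 genes in the RefSeq table for GRCm38.p6. The 250 bases before the annotated start are shown for the pair of members with the highest levels (Rgs4 and Rgs9), for 2 members that varied together from mouse to mouse (Rgs2 and Rgs8, below) and for Rgs16, which varied against them. Capitals mark matches on either strand to the half-site of the cAMP response element (TGACG, or CGTCA on the other strand) and to the TATA box (TATAAA). The promoters of Rgs2 (chr1:144004150-144004399, minus strand), Rgs4 (chr1:169747643-169747892, minus strand), Rgs8 (chr1:153652787-153653036, plus strand), Rgs9 (chr11:109298182-109298431, minus strand) and Rgs16 (chr1:153740103-153740352, plus strand) read, 5′ to 3′:
Rgs2: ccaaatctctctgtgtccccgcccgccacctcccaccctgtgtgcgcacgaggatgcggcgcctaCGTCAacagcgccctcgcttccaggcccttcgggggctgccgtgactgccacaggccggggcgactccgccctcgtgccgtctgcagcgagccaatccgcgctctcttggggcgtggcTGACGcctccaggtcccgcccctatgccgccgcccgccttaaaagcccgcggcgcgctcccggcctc
Rgs4: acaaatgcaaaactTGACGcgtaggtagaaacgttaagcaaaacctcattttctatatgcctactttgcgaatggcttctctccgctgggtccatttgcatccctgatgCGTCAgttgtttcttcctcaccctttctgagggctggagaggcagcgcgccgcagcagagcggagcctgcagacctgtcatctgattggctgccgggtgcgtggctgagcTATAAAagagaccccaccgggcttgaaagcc
Rgs8: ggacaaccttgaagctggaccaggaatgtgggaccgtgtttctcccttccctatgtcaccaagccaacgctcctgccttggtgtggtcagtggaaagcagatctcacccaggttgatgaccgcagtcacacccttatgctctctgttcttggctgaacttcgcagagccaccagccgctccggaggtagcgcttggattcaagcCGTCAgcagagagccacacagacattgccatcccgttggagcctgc
Rgs9: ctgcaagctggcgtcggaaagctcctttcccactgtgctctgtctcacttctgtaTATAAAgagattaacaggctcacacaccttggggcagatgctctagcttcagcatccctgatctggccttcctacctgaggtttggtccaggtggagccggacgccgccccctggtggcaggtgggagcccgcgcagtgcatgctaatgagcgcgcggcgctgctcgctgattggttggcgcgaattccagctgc
Rgs16: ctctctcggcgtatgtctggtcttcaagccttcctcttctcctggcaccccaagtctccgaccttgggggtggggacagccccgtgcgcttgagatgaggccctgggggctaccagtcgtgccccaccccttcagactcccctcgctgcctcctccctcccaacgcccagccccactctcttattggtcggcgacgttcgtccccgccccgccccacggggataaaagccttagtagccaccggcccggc

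The half-site was found in 3 of the 7 member promoters, 2 times in Rgs2, 2 times in Rgs4 and 1 time in Rgs8, against 17.8% of all 32851 promoters of the same length. Rgs8 had 3 promoters listed, of which only the first was searched and shown, whereas the 32851 include every promoter listed for a gene. The TATA box letters were found in Rgs4, 26 to 31 bases before the start, and in Rgs9, 190 to 195 bases before it, against 12.4% of all promoters. Neither the full cAMP response element (TGACGTCA, in 1.55% of all promoters) nor the AP-1 site (TGACTCA, in 4.46%) was found in any of the 7 windows, searched on both strands. The half-site lies within the full element, so the motif counts are not independent, and these matches describe the letters and not binding. Rgs14 and Rgs20 had no entry.

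Of the members, 6 lie on chromosome 1. In GENCODE M21 (GRCm38) these are Rgs20 (chr1:4909576-5070285, minus strand), Rgs2 (chr1:143999338-144004161, minus), Rgs8 (chr1:153653025-153700323, plus), Rgs16 (chr1:153740349-153745468, plus), Rgs4 (chr1:169741477-169747642, minus) and Rgs7 (chr1:175059087-175492500, minus). Rgs9 lies at chr11:109225355-109298129 (minus), Rgs10 at chr7:128373621-128418758 (minus) and Rgs14 at chr13:55369732-55384687 (plus). Values are for whole gene loci, so the splice forms of a gene, such as the retinal and striatal forms of Rgs9, are summed. The counted loci reached past the printed spans of some genes, most for Rgs9 (to chr11:109331340) and then for Rgs2 (to chr1:144016831). Reads in those stretches were not separated from the rest. Antisense genes overlap Rgs8 (Gm29529), Rgs16 (Gm28513) and Rgs20 (Gm16041, beside the protein-coding Atp6v1h). The sources used here do not give whether strand was used in counting, so reads of these partners could have been counted in these 3 loci. Genes on the same strand overlap Rgs7 (5730408A14Rik), Rgs10 (Gm15503) and Rgs20 (Gm37277, Gm17100 and Gm37079). Strand would not separate their reads from those of the member.

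Per kb of exon, Rgs4 stood highest of the 9, at 167 ± 30.4 CPM per kb (SD, n = 20 libraries), and Rgs9 followed at 91.8 ± 18.97 CPM per kb. Together these 2 genes held 61.1% to 72.8% of the summed level per kb of the 9 genes in a library. Without division by length, Rgs9 had a higher mean than Rgs4 in every group. The means were 646.8 against 544.8 CPM in control saline and 504.4 against 490.7 CPM in overactive amphetamine. The order given here thus depends on the exon length, which joins all annotated exons of a gene. Which of these exons striatum uses was not tested. Rgs2, which acts mainly on Gq, stood at 32.6 ± 6.23 CPM per kb. Rgs10, a small R12 member also abundant in microglia, was at 24.7 ± 3.10 CPM per kb, and Rgs8, an R4 member enriched in neurons, at 23.6 ± 2.48 CPM per kb. Rgs20, which prefers the alpha subunit Gz, was at 17.4 ± 1.78 CPM per kb, Rgs14 at 12.8 ± 1.79, Rgs7 at 11.1 ± 0.883 and Rgs16 at 6.08 ± 1.81 CPM per kb. Most neighbours in this order kept it in every one of the 20 libraries, with 3 exceptions: Rgs10 was above Rgs8 in only 11 of 20, and Rgs2 above Rgs10 and Rgs14 above Rgs7 in 18 of 20 each. Over all libraries the level of Rgs16 varied most in proportion (coefficient of variation 29.9%) and that of Rgs7 least (8.0%).

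**Figure D1:**
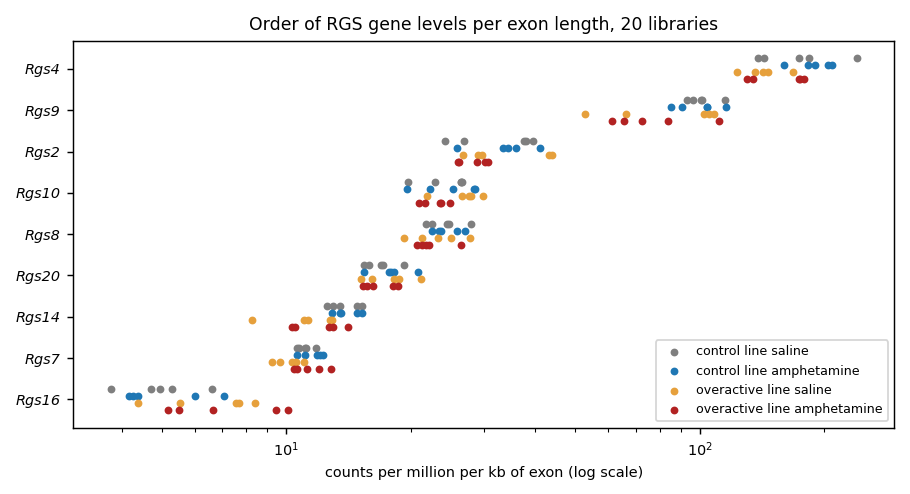
Level of each RGS gene in each of the 20 libraries, in CPM per kb of exon on a log axis, coloured by group. Rgs4 and Rgs9 lie above the other 7 genes in every library, and the points of Rgs10 and Rgs8 lie over each other.

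The first question was what amphetamine did to these genes 2 h after the injection. None of the 9 genes passed an adjusted p of 0.05 (edgeR quasi-likelihood test, Benjamini-Hochberg over 17206 genes) in the control line, where 0% of all genes tested passed, or in the overactive line, where 0% passed, or over both lines together, where again 0% of all genes passed. In the same fits 957, 1382 and 1895 of all genes had an unadjusted p under 0.05, among them 0, 1 and 1 of the 9. DESeq2 called 0, 40 and 161 genes, none of them a member. The median log2 fold change of the 9 genes was 0.03 in the control line and -0.06 in the overactive line, beside -0.00 for all genes in both. Marker lists also differed between the treatments. In the overactive line the cortical and hippocampal markers had a median of 1.48 (10 of 10 positive, 9 with an unadjusted p under 0.05). The striatal projection neuron markers had -0.16 there (13 of 13 negative). In the control line these medians were 0.45 (10 of 10 positive) and 0.07 (11 of 13 positive). The part of these lists in the members' values was not tested. None of 11 activity-regulated genes (Fos, Arc, Egr1 and others) passed in either line, so at this time and dose the fit made no call among genes that stimulants are known to induce. In the control line all 11 were higher after amphetamine (median log2 fold change 0.29), with an unadjusted p under 0.05 for 0 of them. In the overactive line 3 of the 11 were higher (median -0.14), with an unadjusted p under 0.05 for 1.

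Among the R4 members, Rgs2 is itself a gene that dopamine receptor stimulation can induce in striatum. In the control line, Rgs2 was measured at 136, 144, 87.7, 97.8 and 138 CPM in saline libraries 1 to 5 and at 93.7, 149, 121, 130.4 and 125 CPM in amphetamine libraries 1 to 5. The overactive libraries held 96.99, 157, 159, 106 and 108 CPM after saline and 112, 94.2, 95.1, 110.0 and 105 CPM after amphetamine. In the control line the 2 treatments overlapped, and in the overactive line 2 of 5 amphetamine libraries lay below every saline library, 2 saline libraries (2 and 3) being high. The log2 fold change was 0.04 in the control line (95% interval -0.29 to 0.37, not adjusted for the number of genes) and -0.28 in the overactive line (-0.61 to 0.05, adjusted p = 0.692). The difference between these 2 responses was -0.32 (SE 0.22, adjusted p = 1).

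Rgs4 dampens Gi and Gq signals from dopamine D2, muscarinic and metabotropic glutamate receptors. Control saline libraries 1 to 5 held 443, 569, 539.7, 428 and 745 CPM of Rgs4, and control amphetamine libraries 1 to 5 held 646, 632, 496, 589 and 566 CPM. In the overactive line it was at 421, 521, 454, 382 and 441 CPM after saline and at 552, 402, 417, 543 and 538 CPM after amphetamine. Control saline library 5 was the highest of all, and the treatments overlapped in both lines. The log2 fold change with amphetamine was 0.10 in the control line (95% interval -0.17 to 0.38) and 0.14 in the overactive line (-0.14 to 0.42). Rgs8 did not separate the treatments either. Rgs8 was at 236, 270.3, 209, 217 and 239 CPM in control saline libraries 1 to 5 and at 217, 261, 249, 228 and 225 CPM in control amphetamine libraries 1 to 5. Overactive saline libraries 1 to 5 held 185, 268, 241, 205 and 225 CPM, and overactive amphetamine libraries 1 to 5 held 213, 209.7, 205, 199 and 254 CPM. Overactive amphetamine library 5 stood above the other 4 of its group, which lay between 199 and 213 CPM. The Rgs8 log2 fold changes were 0.01 (-0.18 to 0.20) and -0.06 (-0.25 to 0.14), among the narrower intervals of the 9.

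Rgs16, an R4 member known for thalamic and circadian expression, was the lowest of the 9. In the control line, Rgs16 was measured at 10.99, 12.4, 15.5, 11.6 and 8.79 CPM in saline libraries 1 to 5 and at 16.5, 9.75, 9.98, 10.2 and 14.1 CPM in amphetamine libraries 1 to 5. The overactive libraries held 19.7, 10.2, 18.01, 17.7 and 12.9 CPM after saline and 12.8, 22.04, 23.6, 12.1 and 15.6 CPM after amphetamine. Overactive amphetamine libraries 2 and 3 were the highest of the 20, and the treatments overlapped in both lines. Its log2 fold change with amphetamine was 0.03 (-0.43 to 0.49) in the control line and 0.13 (-0.32 to 0.59) in the overactive line, the widest intervals of the 9 in each line.

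Of the R7 members, Rgs7 came nearest to a response. Control saline libraries 1 to 5 held 66.6, 71.1, 64.8, 63.9 and 67.2 CPM of Rgs7, and control amphetamine libraries 1 to 5 held 72.4, 73.7, 66.6, 71.5 and 63.7 CPM. In the overactive line it was at 66.2, 62.3, 57.96, 63.4 and 55.5 CPM after saline and at 77.1, 62.9, 63.8, 72.05 and 67.4 CPM after amphetamine. In the overactive line 3 of 5 amphetamine libraries (1, 4 and 5) exceeded every saline library and the other 2 lay within the saline range. In the control line 3 of 5 (1, 2 and 4) exceeded every saline library as well, and 1 (5) lay below the lowest. The log2 fold change was 0.17 in the overactive line (SE 0.06, unadjusted p = 0.0117, adjusted p = 0.445), against 0.06 (SE 0.06) in the control line. Their difference was 0.11 (SE 0.09, adjusted p = 1). With cortical and thalamic marker scores as covariates the overactive value was 0.07, and without the 4 libraries highest in thalamic markers it was 0.31 with an adjusted p of 0.0629.

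Rgs9 spread widely within the overactive line. Rgs9 was at 595, 733, 645, 616 and 644 CPM in control saline libraries 1 to 5 and at 664, 666, 544, 578 and 739.8 CPM in control amphetamine libraries 1 to 5. Overactive saline libraries 1 to 5 held 336, 653, 690.5, 423 and 673 CPM, and overactive amphetamine libraries 1 to 5 held 462, 419, 536, 392 and 713 CPM. All 10 control libraries lay between 544 and 739.8 CPM, while the overactive libraries fell into low and high values within both treatments. The log2 fold change with amphetamine was -0.02 (-0.39 to 0.36) in the control line and -0.14 (-0.51 to 0.24) in the overactive line.

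The R12 and RZ members were tested in the same fit. In the control line, Rgs10 was measured at 39.1, 45.5, 45.2, 45.1 and 33.7 CPM in saline libraries 1 to 5 and at 48.98, 33.5, 43.2, 37.96 and 48.6 CPM in amphetamine libraries 1 to 5. The overactive libraries held 37.4, 47.2, 51.01, 47.7 and 45.4 CPM after saline and 35.8, 40.2, 40.4, 37.1 and 42.6 CPM after amphetamine. All 5 overactive amphetamine libraries were below the median of overactive saline, and 2 were below its lowest library. The log2 fold change of Rgs10 was -0.22 in the overactive line (unadjusted p = 0.0506, adjusted p = 0.62) and 0.03 in the control line. With the cortical and thalamic scores as covariates the overactive value was 0.09, of the opposite sign. Control saline libraries 1 to 5 held 71.99, 81.7, 65.3, 67.2 and 72.6 CPM of Rgs20, and control amphetamine libraries 1 to 5 held 77.01, 88.3, 75.1, 76.04 and 65.4 CPM. In the overactive line it was at 64.3, 89.8, 77.04, 68.4 and 79.3 CPM after saline and at 76.8, 66.6, 65.00, 68.8 and 78.8 CPM after amphetamine. The Rgs20 groups overlapped throughout, and the log2 fold changes were 0.09 (-0.10 to 0.28) in the control line and -0.09 (-0.28 to 0.10) in the overactive line. For Rgs14, whose values are given with the line difference, they were 0.02 (-0.20 to 0.24) and 0.11 (-0.12 to 0.33).

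The test of whether the 2 lines responded differently gave no call among the 9 genes, and 0% of all genes passed it (510 of 17206 with an unadjusted p under 0.05, among them 0 of the 9, and 0 calls among all genes by DESeq2). The values of the 9 ran from -0.32 for Rgs2 to 0.11 for Rgs7.

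**Figure D2:**
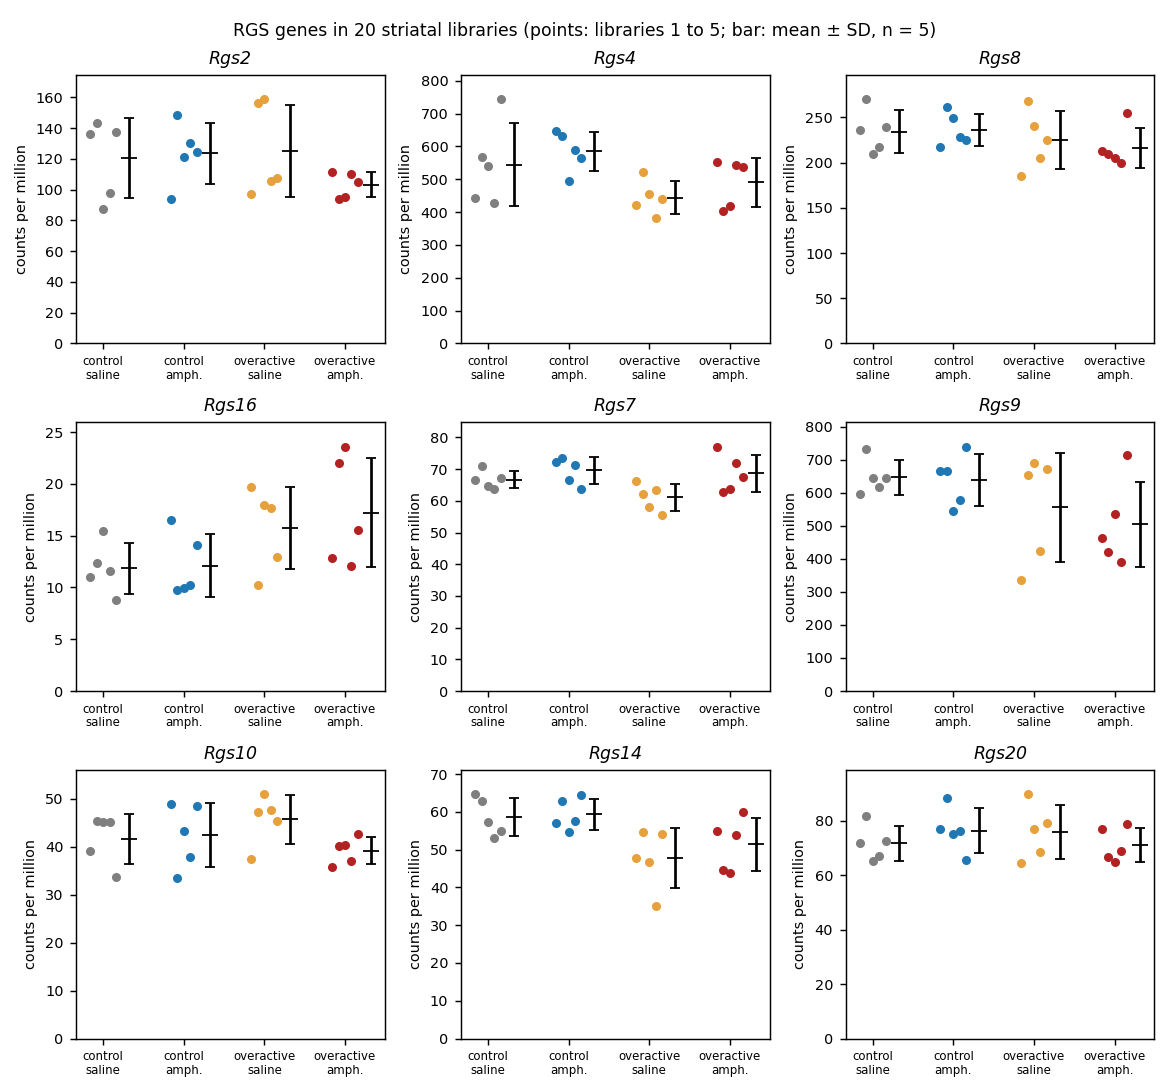
Level (CPM) of each RGS gene in the 5 libraries of each group (points, libraries 1 to 5 from left to right), with the group mean and SD to the right of the points. No pair of groups is fully separated for any gene, and Rgs9 spreads from 336 to 713 CPM in the overactive line.

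The second question was how the overactive line differed from the control line. In saline 0 of the 9 genes passed, where 1.11% of all genes did, and under amphetamine 0 of the 9 passed, where 0.453% of all genes did. Unadjusted p was under 0.05 for 3 and 1 of the 9 (2978 and 2212 of all genes), and DESeq2 called 0 of the 9 in each. Over both treatments 1 of the 9 passed, Rgs14, lower in the overactive line, where 7.02% of all genes passed in either direction. A share of 1 in 9 is near that background. The median log2 difference of the 9 genes over both treatments was -0.09, beside 0.00 for all genes, with 7 of the 9 negative. In the same comparison the median of the striatal projection neuron markers was -0.13 (12 of 13 negative) and that of the cortical and hippocampal markers -0.73 (10 of 10 negative). It was 0.63 for the thalamic markers (8 of 8 positive) and 0.83 for the choroid plexus and ependymal markers (6 of 6 positive). For oligodendrocyte, astrocyte and microglia markers it was 0.21 (6 of 6 positive), 0.15 (5 of 6 positive) and -0.135 (8 of 11 negative). For the striatal interneuron markers it was 0.04, and for the endothelial and mural markers 0.05. The part of these lists in the members' median was not tested. The 2 groups overlapped for all 9 genes in each of 4 comparisons. Of all genes, 1% had groups that did not overlap between amphetamine and saline in the control line and 0.761% in the overactive line, and 4.26% did not overlap between the lines in saline and 2.93% under amphetamine.

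Rgs14, an R12 scaffold that also binds Ras-family proteins and inactive Gi and is best known from hippocampal area CA2, was the member that passed. Rgs14 was at 64.7, 62.95, 57.3, 53.02 and 55.03 CPM in control saline libraries 1 to 5 and at 57.1, 62.7, 54.5, 57.6 and 64.5 CPM in control amphetamine libraries 1 to 5. Overactive saline libraries 1 to 5 held 47.9, 54.7, 46.8, 35.02 and 54.1 CPM, and overactive amphetamine libraries 1 to 5 held 54.97, 44.5, 43.8, 53.8 and 59.9 CPM. Of the 10 overactive libraries 5 lay below the lowest control library and 9 below the control median. The group means were 58.6 ± 5.04 and 59.3 ± 4.15 CPM (SD, n = 5 each) in the control line and 47.7 ± 7.94 and 51.4 ± 6.99 CPM in the overactive line. Rgs14 was lower in the overactive line over both treatments, by a log2 difference of -0.25 (SE 0.07, adjusted p = 0.0497, rank 1207 of all genes by p), with -0.30 (SE 0.11, adjusted p = 0.163) in saline alone and -0.21 (SE 0.11, adjusted p = 0.435) under amphetamine alone.

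That call stood at the threshold and moved with the fit. It was lost with RLE scaling (adjusted p = 0.0516) and without the filter on low counts (0.0593), and it was lost in 15 of the 20 fits that each left out 1 library (adjusted p from 0.0339 to 0.0998, log2 difference from -0.28 to -0.20), standing without control saline library 4, overactive saline library 2 or 5, or overactive amphetamine library 1 or 5. With cortical and thalamic marker scores as covariates the difference was -0.13 (adjusted p = 0.442), and without the 4 libraries highest in thalamic markers it was -0.13 (adjusted p = 0.265). A choroid plexus and ependymal score as covariate gave -0.19 (adjusted p = 0.102) and a striatal score -0.18 (adjusted p = 0.137). The lowest Rgs14 values, 35.02 to 47.9 CPM, included all 4 of those libraries. DESeq2 kept the call (adjusted p = 0.0207).

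For Rgs16 the line difference over both treatments was 0.46 (SE 0.15, adjusted p = 0.0757), which did not pass, with 0.41 (SE 0.22, adjusted p = 0.353) in saline and 0.51 (SE 0.22, adjusted p = 0.35) under amphetamine. Of the 10 overactive libraries, 5 exceeded every control library and 9 exceeded the control median. DESeq2 gave an adjusted p of 0.0354, and 1 of the 20 fits without a library gave 0.0417, that without overactive saline library 2. The difference was 0.14 with the cortical and thalamic scores as covariates, 0.18 without the 4 libraries of high thalamic sums, and 0.24 (adjusted p = 0.157) with a choroid plexus and ependymal score as covariate.

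For Rgs4 the line difference over both treatments was -0.28 (SE 0.10, adjusted p = 0.0782), which did not pass, and all 10 overactive libraries were below the control median of its level, 4 of them below the lowest control library. Rgs4 passed with DESeq2 (adjusted p = 0.0409) and in 1 of the 20 fits without a library, that without control saline library 4 (adjusted p = 0.044). With the cortical and thalamic scores as covariates the difference was -0.12, and without the 4 libraries -0.16. For Rgs9 the difference was -0.28 (SE 0.13, adjusted p = 0.172). Its 6 overactive libraries below every control library were saline 1 and 4 and amphetamine 1 to 4, and the other 4 lay within the control range. Without the 4 libraries the Rgs9 difference was -0.12, with the cortical and thalamic scores -0.31, and with a striatal projection neuron score as covariate -0.11.

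Of the other 5 members, Rgs7 gave -0.13 (SE 0.06, adjusted p = 0.288) in saline, where 4 of 5 overactive libraries lay below every control library, and -0.02 (SE 0.06, adjusted p = 0.922) under amphetamine. Rgs2 gave 0.05 (95% interval -0.28 to 0.38) in saline and -0.26 (-0.59 to 0.07, adjusted p = 0.502) under amphetamine, where 5 of 5 overactive libraries lay below the control median and none below the lowest control library. Rgs10 gave 0.13 (-0.09 to 0.36) and -0.12 (-0.34 to 0.11) in the same order, Rgs8 -0.06 (-0.25 to 0.13) and -0.13 (-0.32 to 0.07), and Rgs20 0.08 (-0.11 to 0.27) and -0.10 (-0.29 to 0.09).

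**Figure D3:**
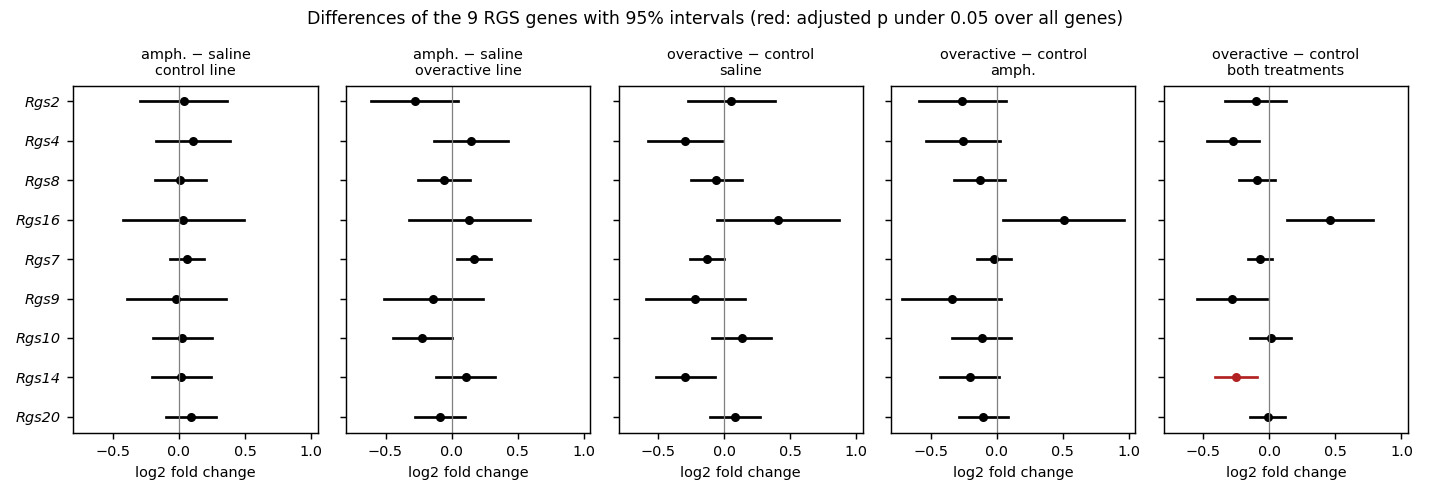
Log2 fold change of each RGS gene with its 95% interval, not adjusted for the number of genes, for amphetamine against saline in each line and for the overactive against the control line after each treatment and with the 2 treatments pooled. Rgs14 over both treatments is the only value past the adjusted threshold, at -0.25.

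Mice of 1 group differed in these genes, and the pattern of that variation differed between the members. It was described by the Pearson r of log2 CPM between 2 genes over the 20 libraries after each group's mean had been subtracted. Genes measured in the same library share its dissection, depth and scaling, so r is given with no test. Rgs20 and Rgs8 varied together (r = 0.855), as did Rgs2 and Rgs8 (r = 0.754) and Rgs8 and Rgs9 (r = 0.695), while Rgs16 ran against Rgs20 (r = -0.617) and Rgs2 (r = -0.596). Rgs10 and Rgs7 also ran in opposite directions (r = -0.475). Over the 16 libraries left without the 4 of high thalamic sums, the same pairs had r of 0.783, 0.657, 0.487, -0.401, -0.491 and -0.409. Those 4 libraries also had low striatal projection neuron marker sums (5173, 5531, 5579 and 6009 CPM), beside 5812 to 8331 CPM in the other 16. Leaving them out therefore narrows the range of the striatal markers too. A change in r with those markers over the 16 libraries cannot be read as a loss of likeness.

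Rgs9 followed the striatal projection neuron markers more closely than did any other member, with a median r of 0.819 over 13 markers, all positive, and of 0.658 over the 16 libraries. Among its most similar genes were 1700003D09Rik (r = 0.971), Bcr (0.937), Strn (0.925), which encodes the dendritic spine protein striatin, and Mrps27 (0.919). The overactive libraries with low Rgs9 had low marker sums: overactive saline library 1 held the lowest Rgs9 level (336 CPM) and the lowest marker sum (5173 CPM). Rgs8 had a median r of 0.671 with the same markers (13 of 13 positive, 0.455 over the 16 libraries), and its most similar genes were Gnal (r = 0.915), the stimulatory alpha subunit of striatal projection neurons, Btaf1 (0.888), the enkephalin precursor gene Penk (0.877), Gucy1b3 (0.875) and Tcf20 (0.874).

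Rgs20 had a median r of 0.604 with the striatal markers (0.235 over the 16 libraries) and of -0.606 with the choroid plexus and ependymal markers (-0.495 over the 16), and had among its most similar genes Dlg2 (r = 0.947), which encodes the synaptic scaffold PSD-93, Anks1b (0.908), Supt6h (0.906) and Plxna2 (0.892). Rgs2 had a median r of 0.511 with the striatal markers (0.217 over the 16 libraries) and of -0.527 with the choroid plexus and ependymal markers (-0.545 over the 16), and was most like LOC100861894 (0.928), Zbtb38 (0.850), Mrpl3 (0.836), the activity-regulated transcription factor gene Egr1 (0.832) and the constitutively active receptor gene Gpr3 (0.832). Rgs14 (median r with the striatal markers 0.529, and 0.321 over the 16 libraries) was most like Plk2 (0.865), Fancd2 (0.851), the kinase gene Ptk2b (0.843), the dendritic gene Ddn (0.818) and Arf3 (0.814). Rgs4 (0.563, and 0.532 over the 16) was most like Alas1 (0.858), Ube2g1 (0.842), Fam49b (0.824), Pld3 (0.818) and Brdt (0.810).

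Rgs16 had its highest r with markers of other tissue. Its median r was 0.772 with the 6 choroid plexus and ependymal markers and 0.605 with the 8 thalamic markers, all positive in both lists, and -0.43 with the striatal markers. Over the 16 libraries these medians were 0.674, 0.231 and 0.06. The 4 libraries were left out for their high thalamic sums, which narrows the range of the thalamic markers. The lower thalamic value therefore cannot be weighed against the choroid plexus and ependymal value. Its most similar genes were Cldn2 (r = 0.869), a tight junction gene of choroid plexus epithelium, the transcription factor gene Otx2 (0.868), Ppp1r36 (0.855), Terf1 (0.854) and Ccdc135 (0.843). The choroid plexus and ependymal markers, of which none was at 0 in any library, summed to 16.8 to 712 CPM in control saline, 21.2 to 257 in control amphetamine, 27.7 to 821 in overactive saline and 29.2 to 908 CPM in overactive amphetamine. Overactive amphetamine library 3 had the highest Rgs16 level (23.6 CPM) and the highest sum, whereas overactive amphetamine library 2 had 22.04 CPM of Rgs16 with a choroid plexus and ependymal sum of 103 and a thalamic sum of 300.2 CPM, the highest of the 20.

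Rgs10 varied with Rgs16 (r = 0.458, and 0.776 over the 16 libraries) and had a median r of 0.345 with the choroid plexus and ependymal markers, positive for 6 of 6 (0.487 over the 16 libraries). Rgs10 also had a median r of -0.55 with the cortical and hippocampal markers, negative for 10 of 10 (-0.62 over the 16 libraries), and of -0.04 with 11 microglia markers, and was most like Dek (0.859), Sox1 (0.778), Mirg (0.774), Lrch3 (0.773) and Lrrc1 (0.771). Rgs7 had a median r of 0.40 with the cortical and hippocampal markers, positive for 10 of 10 but 0.03 over the 16 libraries, and of -0.14 with the striatal markers. Among its most similar genes were Rspo3 (0.912), Tmem30a (0.882), Fbxo34 (0.861) and Aagab (0.856).

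**Figure D4:**
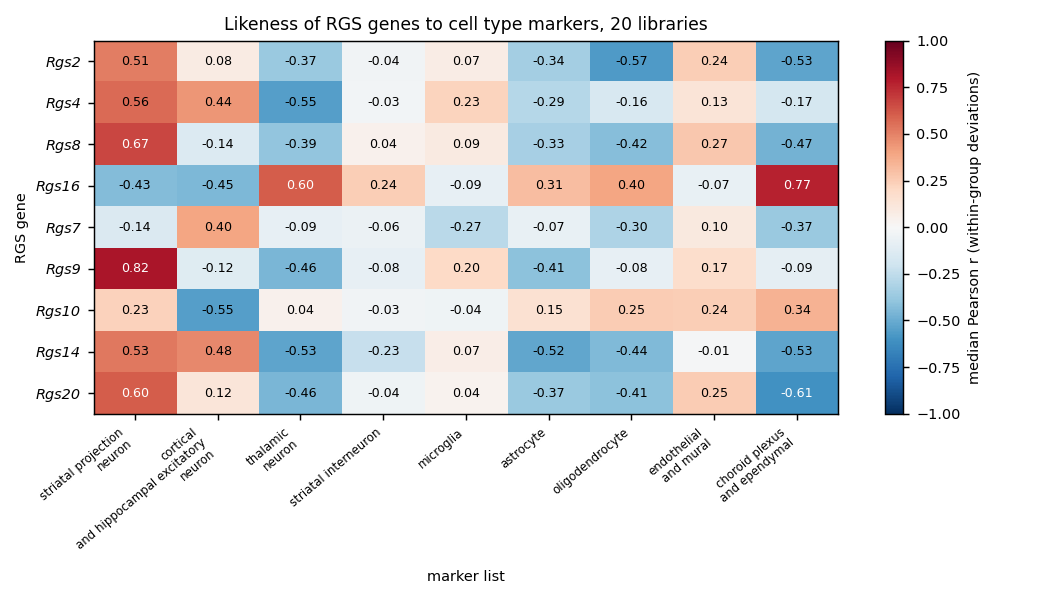
Median Pearson r between each RGS gene (rows) and the markers of each cell type list (columns), over 20 libraries after subtracting group means, with red for positive and blue for negative values. Rgs9 has 0.82 with striatal projection neuron markers, and Rgs16 has 0.77 with choroid plexus and ependymal markers.

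**Figure D5:**
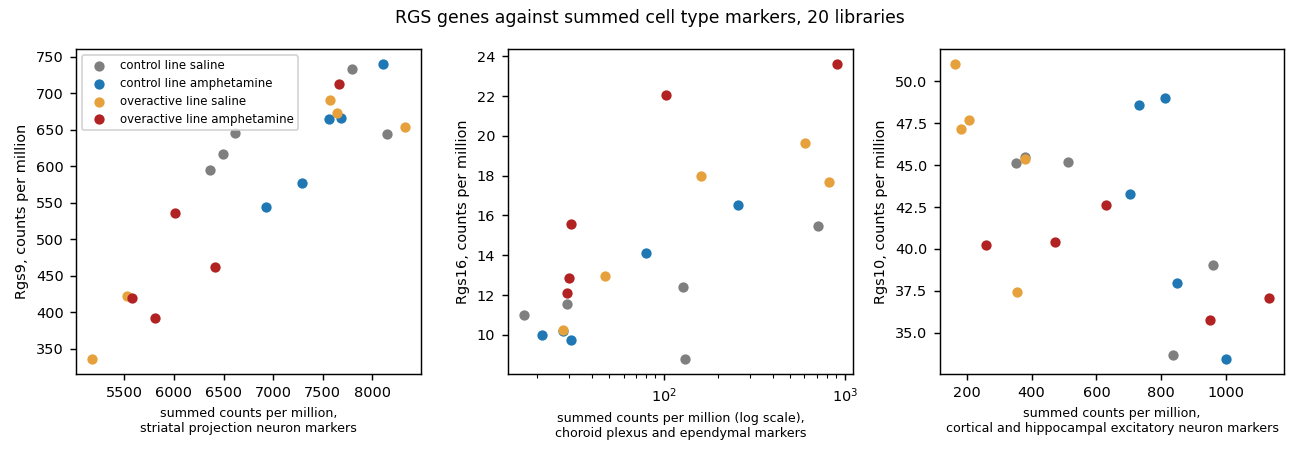
Level (CPM) of Rgs9, Rgs16 and Rgs10 against the summed CPM of a marker list in the same library, coloured by group, with a log axis for the choroid plexus and ependymal sum. The lowest Rgs9 level (336 CPM) lies at the lowest striatal sum, the highest Rgs16 level (23.6 CPM) lies at the highest choroid plexus and ependymal sum, and Rgs10 is highest (51.01 CPM) at the lowest cortical and hippocampal sum.

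Rgs9 and Rgs20 each had a second locus in the table with the same span. That of Rgs9 held a mean of 3646 counts, beside 24344 at the main locus, and that of Rgs20 held 108, beside 3046. Neighbouring rows in the table's numbering were mainly plus-strand genes for the second loci (30 of 30 and 17 of 18), although both genes lie on the minus strand. What the second loci count was not tested. None of their tests passed, and the Rgs9 second locus differed between the lines over both treatments by -0.35 (SE 0.18, adjusted p = 0.217), beside -0.28 at the main locus.

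The rest of the pathway was read from the same fits. Among 13 other RGS genes 10 were tested, and 1 of the 10 passed over both treatments, where 7.02% of all genes did, and under amphetamine, where 0.453% did: Rgs5, a regulator abundant in pericytes. Rgs5 was at 7.02, 10.7, 11.6, 10.4 and 11.9 CPM in control saline and at 14.3, 8.44, 8.64, 8.95 and 6.89 CPM in control amphetamine. It was at 16.2, 13.96, 14.9, 17.2 and 16.5 CPM in overactive saline and at 13.7, 16.3, 14.1, 19.99 and 20.9 CPM in overactive amphetamine. The lines did not overlap in saline, as for 4.26% of all genes, but Rgs5 did not pass in saline alone. Under amphetamine control library 1 lay within the overactive range. Rgs5 was higher in the overactive line by 0.73 on the log2 scale over both treatments (SE 0.12, adjusted p = 0.00216), a call that stood in all 20 fits without a library and in 8 of 8 other alternatives, and by 0.85 under amphetamine alone (adjusted p = 0.0352), a call lost in 4 of 8 other alternatives (log2 difference 0.84 to 0.95, adjusted p up to 0.12, without the 4 libraries of high thalamic sums) and in 7 of those 20 fits (adjusted p up to 0.0918, log2 difference 0.75 to 1.05 over all 20), those without control amphetamine library 2, 3, 4 or 5 or overactive amphetamine library 2, 4 or 5. None of 9 endothelial and mural markers passed in any line comparison, and their median log2 difference was -0.16 in saline (2 of 9 positive) and 0.17 under amphetamine (8 of 9 positive, 2 with an unadjusted p under 0.05). Their summed level was 153 to 193 CPM in control saline and 144 to 181 CPM in overactive saline, and 135 to 159 CPM in control amphetamine and 157 to 197 CPM in overactive amphetamine. The part of these markers in the Rgs5 difference was not tested.

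The partners of the R7 members did not pass. Over both treatments the line difference was -0.17 (SE 0.08, adjusted p = 0.173) for Gnb5, the beta subunit of R7 complexes, -0.24 (SE 0.08, adjusted p = 0.0674) for Rgs7bp, which anchors them to the membrane, and -0.02 for Gpr158, an orphan receptor that binds Rgs7. None of 5 partners, 13 alpha subunits, 20 receptors and 19 effectors and other regulators passed in any of the 7 comparisons. For the alpha subunits the line differences over both treatments were -0.15 for Gnal, -0.06 for Gnao1 and -0.01 for Gnaq, and for the receptors they were -0.18 for Drd1a, -0.12 for Drd2, -0.13 for Adora2a, -0.03 for Grm5 and 0.41 (adjusted p = 0.0576) for Oprm1, the mu opioid receptor gene. Of 14 beta and gamma subunit genes 1 passed over both treatments, beside the 7.02% of all genes, namely Gng11, higher in the overactive line by 0.47 (SE 0.11, adjusted p = 0.0142), a value of 0.27 to 0.48 over 8 alternatives and no longer past the threshold with the cortical and thalamic scores (adjusted p = 0.271) or without the 4 libraries highest in thalamic markers (adjusted p = 0.143).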

How the data were processed

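Total RNA of whole striatum from 20 mice was sequenced, 1 library per mouse and 5 per group. The deposited table holds expected counts per locus made by the authors, 93.9% of them whole numbers within 0.01; the submitters' processing notes name the builds mm10 and GRCm38, and the aligner and counter are not given in the sources used here. Loci without a symbol (10576 loci, 0.65% of counts) were left out, and counts were rounded. Library totals ran from 31393788 to 53773028.

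Genes kept by filterByExpr (17206) were scaled by TMM and fitted with 1 mean per group over all 20 libraries by edgeR 4.0.16 quasi-likelihood tests in R 4.3.3, two-sided, with Benjamini-Hochberg adjustment over all genes tested and calls at 0.05. Intervals are 95% t intervals from the fitted SE. The code was tested on simulated counts. DESeq2 1.42.0, RLE scaling, no filter, the replicate number as a block, cortical and thalamic marker scores as covariates and leaving out each library were alternatives. Leaving out the 4 libraries highest in thalamic markers and the choroid plexus or striatal scores as covariates were chosen after seeing the data. A marker score is the mean log2 CPM deviation of a list.

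The members, pathway lists and marker lists were chosen with earlier results of these data known. All members were named, with list genes that passed in any comparison, 11 listed partners, subunits and receptors, and the 5 most similar genes of each member among 14367 loci of at least 1 CPM, with log2 CPM at a prior count of 2. Of these similar genes, 3 are not reported here. Levels per kb used the joined length of all exons of a gene in GENCODE M21. Where a table locus reached past its gene, the gene's own span was given.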

Additional observations from a re-analysis of the deposited data

Results flagged for a closer look

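Rgs8 in overactive amphetamine library 5 (254.5 CPM) stood apart from the other 4 libraries of its group, with a gap to the nearest of 0.753 of the group's range, above the 95% critical value of 0.71. It was the 1 such value among 36 groups of 5 checked, where chance gives about 1 in 20.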

How the results depend on the processing

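Calls among the 9 genes were 0 under every alternative in 6 of the 7 comparisons. Over both treatments the line difference gave 1 member call, and this became 0 with RLE scaling, 0 without the filter, 0 with the cortical and thalamic scores, 0 with the choroid plexus and ependymal score, 0 with the striatal score, 0 without the 4 thalamic-high libraries and 3 with DESeq2 (Rgs4, Rgs14 and Rgs16), and ran from 0 to 2 when 1 library was left out. For all genes tested, DESeq2 called 40 for amphetamine in the overactive line, 161 for amphetamine over both lines, and 764, 322 and 2095 for the line in saline, under amphetamine and pooled. Leaving out the 4 libraries gave 31, 80, 95, 17 and 323 in that order. The cortical and thalamic scores gave 23, 34 and 206 for the 3 line comparisons, the striatal score 22 under amphetamine and 693 pooled, and the choroid plexus and ependymal score 709 pooled. With 1 library left out, calls ran from 0 to 4 for amphetamine over both lines, 67 to 240 for the line in saline, 23 to 88 under amphetamine and 770 to 1414 pooled. Shifts of over 1.5 times came without control saline 1, 2, 3 or 5 or overactive saline 3 or 4 for saline, without control amphetamine 3, 4 or 5 or overactive amphetamine 2 under amphetamine, without control saline 5, overactive amphetamine 2 or overactive saline 4 for the pooled line, and without control saline 1 or overactive amphetamine 2 for amphetamine over both lines. The cause of these shifts was not tested.

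The labels do not say whether a replicate number marks mice that belong together. Correlations of same-numbered libraries' deviations ran from -0.232 to 0.247 (median 0.035), with 10 of 30 over 0.1. Libraries of different numbers were not compared, so these values cannot decide whether the numbers pair the mice. The fit with the number as a block changed no member call (Rgs14 adjusted p = 0.0397) and gave 51 genes for the line under amphetamine instead of 78. Of 63 member values (9 genes in 7 comparisons), none past the threshold in the reported fit changed sign, but 29 of the others did under some alternative, none of them larger than 0.22 in the reported fit. The cortical and thalamic scores moved 27 by 1 SE or more, leaving out the 4 libraries 20, and RLE scaling, the filter, DESeq2 and the block none. With 5 mice per group the median SE of a member was 0.11 on the log2 scale for 2 groups and 0.08 for pooled comparisons, which limits what differences could be called.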
